A study of Mus musculus with 17 samples.

Results

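The genes described here are 6 steroid hormone receptors and the enzyme that makes estrogen: Esr1, Esr2, Gper1, Pgr, Nr3c1, Nr3c2 and Cyp19a1. They were chosen by name, as the 7 rows of the count table whose Ensembl identifier carries one of these symbols, out of 39017 genes in the table. All 7 passed the filter on low counts. RNA bound to tagged ribosomes of cortical neurons was sequenced from 17 mice, with 1 library per mouse: 5 male EAE mice, 4 male control mice, 4 female EAE mice and 4 female control mice. EAE (experimental autoimmune encephalomyelitis) is a model of multiple sclerosis. It was induced by immunization with a peptide of myelin oligodendrocyte glycoprotein in complete Freund's adjuvant with Mycobacterium tuberculosis, plus pertussis toxin, and the mice were taken in the chronic stage. The control mice (labelled NL) were healthy and matched for age and sex. They are not described as having received adjuvant or toxin, so the disease and these agents cannot be told apart. All mice were of the C57BL/6J background and carried both NSE-Cre (the rNSEII-Cre line) and RiboTag. In RiboTag mice Cre puts a hemagglutinin (HA) tag on the ribosomal protein Rpl22, and the NSE promoter, of the neuronal enolase gene, drives Cre in neurons. The mice were adults at immunization by the methods of the study, and the labels give no age for single samples.

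Steroid hormones cross the cell membrane and bind receptors that act as transcription factors. The unliganded receptors of glucocorticoids, mineralocorticoids and progesterone are held by Hsp90 chaperone complexes. On binding hormone they attach to DNA at elements built from the half-site AGAACA, while estrogen receptors prefer the half-site AGGTCA. In the forebrain the mineralocorticoid receptor binds corticosterone with high affinity. The glucocorticoid receptor binds it with lower affinity and is filled mainly during stress and at the daily peak. Estradiol, progesterone and glucocorticoids all modify disease in EAE.

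Levels are given as CPM, counts scaled to a common library size with TMM factors (trimmed mean of M values). Between genes they were compared as CPM per kilobase of annotated exon. Nr3c1, the glucocorticoid receptor, had the highest level, 14.5 ± 2.81 CPM per kb (SD, n = 17), at the 82.7th percentile of 21799 tested genes with a known length. Nr3c2, the mineralocorticoid receptor, followed with 3.998 ± 0.999 CPM per kb (percentile 62.6), and Pgr, the progesterone receptor, with 1.62 ± 0.331 CPM per kb (percentile 48.6). Each of these 3 receptors lay outside the spread of the next. Esr1, the nuclear estrogen receptor alpha, had 0.230 ± 0.0456 CPM per kb and Gper1, a membrane receptor that responds to estrogen, 0.226 ± 0.0645 CPM per kb. These neighbours did not differ beyond their spread. Esr2, estrogen receptor beta, and Cyp19a1, the aromatase that converts androgens to estrogens, were near the limit of detection, with 0.0179 ± 0.0127 and 0.0145 ± 0.0111 CPM per kb, and did not differ beyond their spread either. Esr2 had 0 to 12 counts per library and Cyp19a1 0 to 21 counts. At 3 counts or fewer, Esr2 lay in 6 of the 17 libraries and Cyp19a1 in 5.

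**Figure D1:**
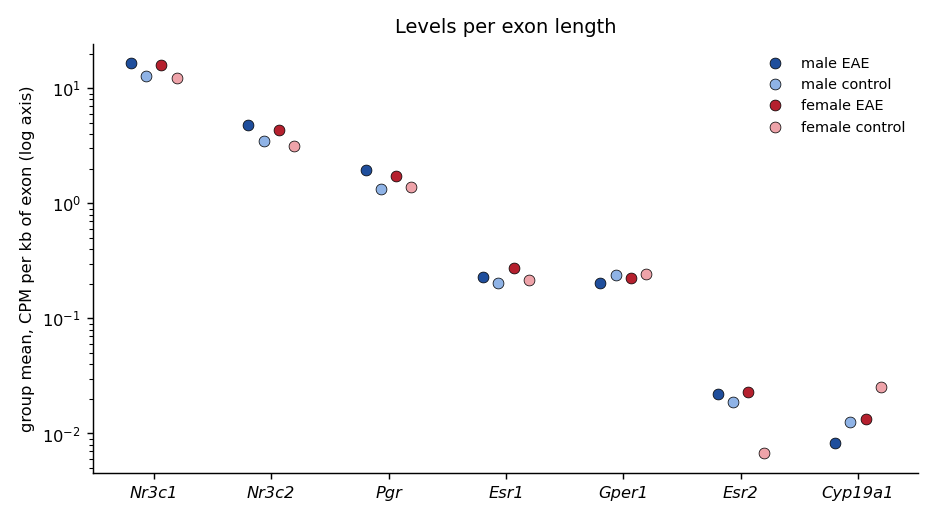
Mean level of each gene in each group, in CPM per kilobase of exon on a log axis, with male EAE, male control, female EAE and female control from left to right. The genes fall from Nr3c1 (14.5 CPM per kb over all libraries) to Cyp19a1 (0.0145), and Esr1 and Gper1 lie side by side.

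Total counts ranged from 70613567 to 76768267 in male EAE and 85800542 to 98433383 in male control mice, and from 66155142 to 86691316 in female EAE and 83664876 to 92822398 in female control mice, so the male groups did not overlap in depth. Defining neuronal markers were abundant: the summed level of 12 of them was 16668 to 19447 CPM in male EAE and 14310 to 17815 CPM in male control mice, and 15411 to 18214 CPM in female EAE and 15172 to 18975 CPM in female control mice. Astrocyte and oligodendrocyte RNA was also present. The summed level of 10 astrocyte markers was 5350 to 6479 CPM in male EAE against 7121 to 9806 CPM in male control mice, without overlap, and 7 of the 10 were lower by the test used below. In females it was 4963 to 5849 CPM in EAE and 5034 to 8998 CPM in control mice. The summed level of 10 microglial markers was 36.7 to 60.8 CPM in male EAE and 40.96 to 45.6 CPM in male control mice, with 1 called higher. For T and B cell markers it was 87.6 to 107 CPM in male EAE and 65.1 to 101.2 CPM in male control mice, with 3 of 8 tested called higher. Of 10 striatal markers 5 were higher in male EAE mice, and of 12 neuronal markers 4 were higher and 1, Rbfox3, was lower, where 19.2% of all genes were called higher and 20.4% lower. Interneuron markers split, with 4 of 10 higher and 4 lower, and 4 of 10 hypothalamus and amygdala markers were lower and 1 higher, at a summed level of 12.6 to 22.3 CPM in male EAE and 18.5 to 36.04 CPM in male control mice. Of 10 endothelial and pericyte markers 3 were higher and 1 lower, at 26.9 to 33.5 CPM in male EAE and 20.5 to 29.4 CPM in male control mice. Of 10 hippocampal markers 2 were higher and 0 lower in male EAE mice. Their summed level was 173 to 208 CPM in male EAE and 154 to 169 CPM in male control mice, without overlap. In females it was 156 to 232 CPM in EAE and 140 to 159 CPM in control mice, with overlap. The part of these shifts in the results on the receptors was not tested. In RNA pulled from tissue, fewer cells of a type and less RNA per cell cannot be told apart. Male control 4 and female control 2 lay farthest out on the first principal component, and results that change without them are given below.

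In male mice with EAE, 3 of the 7 genes were higher than in male controls: Pgr, Nr3c2 and Nr3c1. None was lower. Calls used edgeR's quasi-likelihood test over 22242 genes with a false discovery rate (FDR) under 0.1 and a log2 fold change beyond 0.25 in either direction. In the same comparison 19.2% of all tested genes were called higher, and 24.4% of those with a mean log2 CPM above 1, so that rises were common among genes at the level of these receptors. Calls in both directions took in 39.6% of all genes.

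Pgr (ENSMUSG00000031870, chr9:8899833-8968611 on the plus strand, GRCm38) encodes the nuclear progesterone receptor, itself a classical estrogen-induced gene. It had 17.3, 17.2, 14.4, 16.98 and 17.3 CPM in the male EAE mice, against 10.8, 13.5, 11.8 and 9.29 CPM in the male control mice. Every male EAE library was above every male control library, as for 10.1% of all tested genes, and 4 of the 5 lay between 16.98 and 17.3 CPM. The log2 fold change was 0.55 (SE 0.13, FDR 0.00699 by edgeR). It was 0.35 (FDR 0.0151) with an offset for gene length and 0.37 (FDR 0.00600) with 1 surrogate variable. In females Pgr had 12.3, 16.6, 16.8 and 13.5 CPM in the EAE mice and 12.5, 9.28, 11.2 and 14.1 CPM in the control mice. Here the groups overlapped, and the log2 fold change was 0.33 (SE 0.14, unadjusted p = 0.0310, FDR 0.223 by edgeR).

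Nr3c1 (ENSMUSG00000024431, on chromosome 18) encodes the glucocorticoid receptor, through which corticosterone restrains inflammation. It had 130, 131, 89.2, 135 and 146 CPM in the male EAE mice, against 94.8, 119, 93.2 and 84.6 CPM in the male control mice. Of the male EAE libraries 4 were above all controls, while the library of male EAE 3 was within their range. The log2 fold change was 0.37 (SE 0.13, FDR 0.0405 by edgeR). In females Nr3c1 had 107, 141, 142 and 105 CPM in the EAE mice and 97.7, 90.3, 96.4 and 91.2 CPM in the control mice. These groups did not overlap, as for 3.99% of all genes in that direction, with a log2 fold change of 0.40 (SE 0.14, unadjusted p = 0.0107, FDR 0.190 by edgeR). The male call was lost without male control 4 (FDR 0.124), without male EAE 5 (FDR 0.121), with an offset for gene length (log2 fold change 0.19, FDR 0.171) and with 1 surrogate variable (log2 fold change 0.23, FDR 0.141).

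Nr3c2 (ENSMUSG00000031618, chr8:76899442-77245012 on the plus strand, GRCm38) encodes the mineralocorticoid receptor, which in forebrain neurons mostly binds corticosterone. It had 29.2, 33.1, 22.7, 36.4 and 33.5 CPM in the male EAE mice, against 20.0, 27.6, 24.1 and 17.8 CPM in the male control mice. Again 4 of the 5 EAE libraries were above all controls and male EAE 3 was not. The log2 fold change was 0.47 (SE 0.17, FDR 0.0402 by edgeR). In females Nr3c2 had 22.1, 28.7, 38.4 and 24.1 CPM in the EAE mice and 22.6, 17.6, 18.4 and 23.7 CPM in the control mice. The groups overlapped, with a log2 fold change of 0.46 (SE 0.18, unadjusted p = 0.0183, FDR 0.203 by edgeR), and 0.26 (FDR 0.565) without female EAE 4. The male call was lost without male control 4 (FDR 0.133), without male control 1 (FDR 0.107) and with 1 surrogate variable (log2 fold change 0.23, FDR 0.113). Exons of Nr3c2 overlap those of the antisense gene Gm10649. The library kit keeps the strand, but the strand setting of the counting is not given in the sources used here.

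**Figure D2:**
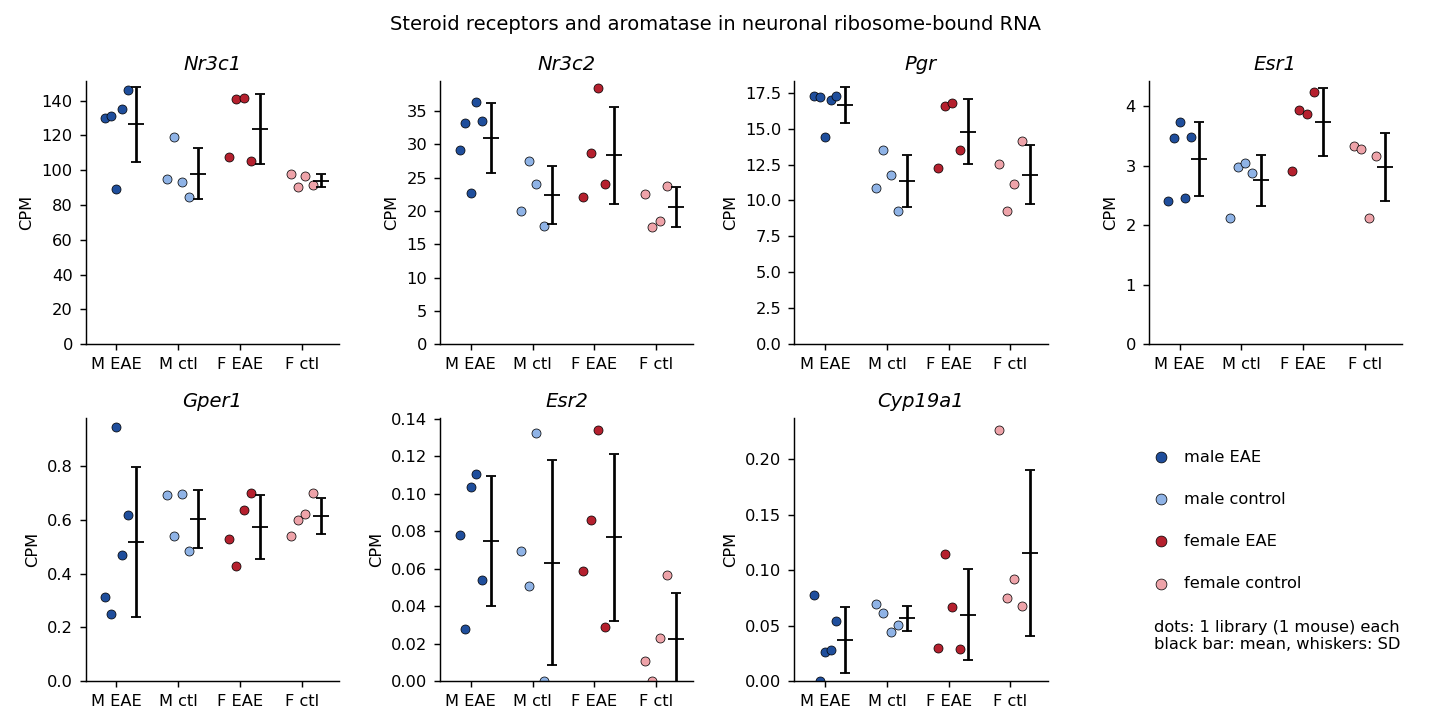
CPM of the 7 genes in each library, on linear axes from 0 that differ between panels. Each dot is 1 mouse, the black bar and whiskers are the mean and SD (whiskers are cut at 0), and groups run male EAE, male control, female EAE, female control. Pgr separates the male groups (14.4 to 17.3 CPM against 9.29 to 13.5 CPM) and Nr3c1 the female groups (105 to 142 CPM against 90.3 to 97.7 CPM), while Esr2 and Cyp19a1 stay under 0.23 CPM.

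Pgr, Nr3c2 and Nr3c1 varied together between libraries, and the promoters of Pgr and Nr3c2 are shown. No promoter window was found for Nr3c1. Each window runs from 250 bases before to 50 bases after the RefSeq start site (GRCm38.p6), 5′ to 3′ on the gene's strand, with capitals marking every GC box (GGGCGG or its reverse complement CCGCCC), the element bound by Sp1.
Pgr, chr9:8899583-8899882, plus strand: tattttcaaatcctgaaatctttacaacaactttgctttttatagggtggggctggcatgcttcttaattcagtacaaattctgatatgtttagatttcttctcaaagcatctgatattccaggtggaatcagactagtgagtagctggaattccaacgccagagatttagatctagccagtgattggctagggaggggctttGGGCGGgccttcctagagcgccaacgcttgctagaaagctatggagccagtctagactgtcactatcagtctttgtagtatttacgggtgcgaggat
Nr3c2, chr8:76902080-76902379, plus strand: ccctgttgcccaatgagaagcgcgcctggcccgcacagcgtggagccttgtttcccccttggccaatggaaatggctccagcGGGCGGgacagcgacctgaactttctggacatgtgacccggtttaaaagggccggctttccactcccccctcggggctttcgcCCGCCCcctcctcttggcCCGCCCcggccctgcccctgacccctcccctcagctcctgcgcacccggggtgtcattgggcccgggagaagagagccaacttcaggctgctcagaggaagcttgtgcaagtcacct
The Pgr window held 1 GC box and 43.7% G and C, and the Nr3c2 window 3 GC boxes and 65.7% G and C. A GC box was found in 35.7% of 32851 RefSeq windows of this length, counting both strands. Neither window held the half-site AGAACA, found in 19.0% of all windows, or the estrogen half-site AGGTCA, found in 16.3%, on either strand. Of the other genes with a window, the half-site AGGTCA occurred once, in 1 of the windows of Cyp19a1. A match or its absence in these windows says nothing about binding.

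The estrogen receptors and aromatase were not called in either sex. Esr1 (ENSMUSG00000019768, chr10:4611593-5005614, plus strand) mediates most nuclear actions of estradiol. It had 2.41, 3.47, 3.73, 2.46 and 3.47 CPM in the male EAE mice and 2.12, 2.97, 3.05 and 2.87 CPM in the male control mice, a log2 fold change of 0.17 (SE 0.18, FDR 0.483 by edgeR). In females it had 2.90, 3.93, 3.86 and 4.24 CPM in the EAE mice and 3.33, 3.28, 2.12 and 3.17 CPM in the control mice, a log2 fold change of 0.33 (SE 0.19, FDR 0.320 by edgeR). In both sexes the groups overlapped. The 95% interval of the log2 fold change was -0.17 to 0.52 in males and -0.04 to 0.69 in females. The 95% intervals of Pgr, 0.29 to 0.81 in males and 0.05 to 0.60 in females, overlapped those of Esr1. Esr1 and Pgr were not tested against each other. Leaving out single libraries gave 0.07 to 0.26 for Esr1 in males and 0.20 to 0.41 in females, with the lowest values without male control 1 and without female control 3.

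Gper1 (ENSMUSG00000053647, chr5:139423151-139427800, plus strand), a G protein-coupled receptor and no transcription factor, had 0.311, 0.248, 0.946, 0.470 and 0.619 CPM in the male EAE mice and 0.693, 0.539, 0.696 and 0.483 CPM in the male control mice. Among males, the highest and the 3 lowest values were all in EAE mice. In females it had 0.528, 0.430, 0.636 and 0.702 CPM in the EAE mice and 0.539, 0.600, 0.622 and 0.701 CPM in the control mice. Log2 fold changes were -0.21 (SE 0.30) in males and -0.10 (SE 0.32) in females, with FDR 0.624 and 0.886 by edgeR. The male value was -0.55 (FDR 0.125) without male EAE 3, the mouse with the highest level, and -0.05 without male EAE 2, the mouse with the lowest. The exact two-sided permutation test on log2(CPM + 0.01) gave p = 0.413 in males and p = 0.6 in females.

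Esr2 (ENSMUSG00000021055, chr12:76120419-76177259, minus strand), the second nuclear estrogen receptor, had 6, 2, 8, 8 and 4 counts in the male EAE mice and 6, 5, 12 and 0 counts in the male control mice. In females it had 4, 6, 12 and 2 counts in the EAE mice against 1, 0, 2 and 5 counts in the control mice. The female log2 fold change of 1.71 (SE 0.85, FDR 0.267 by edgeR) rests on these counts, and its 95% interval was 0.04 to 3.38. The exact two-sided permutation test gave p = 0.0571 in females, where the smallest possible value is 0.0286, and p = 0.587 in males. Leaving out single libraries gave 1.26 to 2.61 in females, the highest without female control 4, and none of these was called.

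Cyp19a1 (ENSMUSG00000032274, chr9:54165937-54268110, minus strand), which supplies estradiol made within the brain, had 6, 0, 2, 2 and 4 counts in the male EAE mice and 6, 6, 4 and 4 counts in the male control mice. In females it had 2, 8, 6 and 2 counts in the EAE mice and 21, 6, 8 and 6 counts in the control mice. The EAE values were the lower ones on average in both sexes, with log2 fold changes of -0.58 (SE 0.66) in males and -0.93 (SE 0.63) in females. Without female control 1, the library with 21 counts, the female value was -0.37, and without male EAE 2, with 0 counts, the male value was -0.28. Leaving out male EAE 1 gave -1.01 in males and leaving out female EAE 3 gave -1.41 in females. Neither comparison passed the test (FDR 0.540 and 0.407 by edgeR; exact permutation p = 0.206 and 0.2, two-sided). The counts of both genes are mostly even, 12 of 15 values above 0 for Esr2 and 15 of 16 for Cyp19a1, and over all genes 64.7% of counts from 1 to 10 are even. Whether both reads of a pair were counted was not tested, and the number of independent fragments can be lower than the count. Halving all counts moved no call of the 7 genes.

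**Figure D3:**
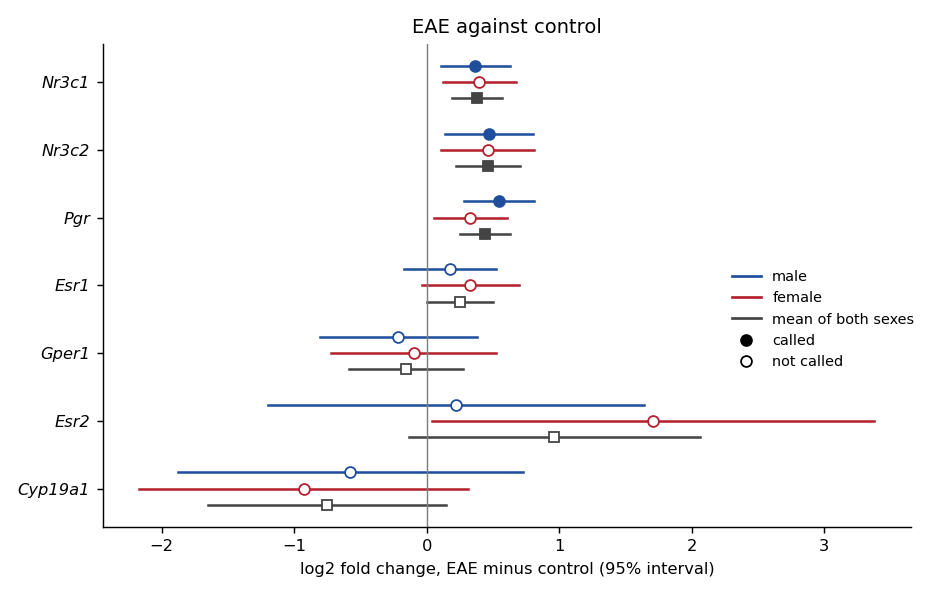
Log2 fold change of EAE minus control for each gene, with its 95% interval, in males, in females and as the mean of both sexes. Filled symbols passed the test. Nr3c1, Nr3c2 and Pgr lie above 0 in both sexes, at 0.33 to 0.55, and the intervals of Esr2 and Cyp19a1 are the widest.

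In female mice edgeR called none of the 7 genes, where 0.0584% of all genes were called. At an unadjusted p under 0.05, there were 3 of the 7 (Nr3c1, Nr3c2 and Pgr) and 19.8% of all genes. DESeq2 called 1 of the 7, Nr3c1 (FDR 0.0958), and gave no FDR for Esr2, Gper1 and Cyp19a1. Limma voom and edgeR's likelihood ratio test called 0 of the 7. Of 22242 genes, DESeq2 called 800 higher and 554 lower in females. The likelihood ratio test called 425 higher and 214 lower, and limma voom 0. Beside the lists below, the same counts over all genes hold for these tests. With 1 surrogate variable in the model the same 3 receptors were called, with FDR 0.0366 for Nr3c1, 0.0212 for Nr3c2 and 0.0395 for Pgr. That fit called 1804 of all genes higher and 1621 lower in females. The sexes were not shown to differ. In the test of the male effect minus the female effect, 0 of the 7 and 0% of all genes were called by edgeR, with 0 of the 7 and 4.19% of all genes at an unadjusted p under 0.05. The difference in log2 fold change was 0.22 for Pgr (95% interval -0.16 to 0.60), -0.03 for Nr3c1 (-0.41 to 0.35) and 0.01 for Nr3c2 (-0.47 to 0.49). DESeq2, limma voom and the likelihood ratio test also called 0 of the 7.

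Over both sexes, as the mean of the male and the female effect, Pgr, Nr3c1 and Nr3c2 were higher in EAE mice, with log2 fold changes of 0.44 (SE 0.10), 0.38 (SE 0.10) and 0.47 (SE 0.12) and FDR 0.00285, 0.00543 and 0.00696 by edgeR. In this comparison 18.8% of all genes were called higher. Without both male control 4 and female control 2 these 3 genes were still called, and leaving out any single library did not change that. With the offset for gene length Nr3c1 fell just short of the minimum log2 fold change, at 0.2495. Esr1, at 0.25 (SE 0.13, FDR 0.132 by edgeR), was not called, but passed without male EAE 1 (0.29, FDR 0.0802), male EAE 4 (0.29, FDR 0.0964) or female EAE 1 (0.29, FDR 0.0874). Esr2, at 0.97 (SE 0.56, FDR 0.186 by edgeR), passed without male control 3 (1.28, FDR 0.0956), without female control 4 (1.42, FDR 0.0768) and with limma voom (FDR 0.0868), on counts of 0 to 12 per library.

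Among healthy mice no sex difference was called in these genes. Male minus female log2 differences in control mice were 0.06 for Nr3c1 (95% interval -0.21 to 0.33), 0.12 for Nr3c2 (-0.23 to 0.47), -0.05 for Pgr (-0.33 to 0.22) and -0.11 for Esr1 (-0.48 to 0.26). For Esr2 it was 1.42 (-0.25 to 3.10) and for Cyp19a1 -1.02 (-2.24 to 0.20), on the low counts given above. By edgeR 0 of the 7 and 0.0674% of all genes were called, and 0 of the 7 and 4.7% of all genes had an unadjusted p under 0.05. DESeq2, limma voom and the likelihood ratio test called 0 of the 7 as well.

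The ratio of the glucocorticoid to the mineralocorticoid receptor overlapped between EAE and control mice. The count of Nr3c1 divided by that of Nr3c2 averaged 4.08 ± 0.316 in male EAE and 4.42 ± 0.417 in male control mice, and 4.45 ± 0.564 in female EAE and 4.63 ± 0.663 in female control mice (SD, n = 5, 4, 4 and 4). Across the 17 libraries log2 CPM of Nr3c1 and Nr3c2 had a Pearson r of 0.90, Pgr and Nr3c2 0.92, and Pgr and Nr3c1 0.84, while the r of Esr1 with these 3 was 0.20 to 0.31. Taken as deviations from the group means, the r were 0.81 for Nr3c1 with Nr3c2, 0.87 for Pgr with Nr3c2 and 0.71 for Pgr with Nr3c1. These are descriptions of libraries that share their depth scaling, with no test.

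Pgr, Nr3c2 and Nr3c1 also followed the main axis of variation in these libraries. Of the variance among 13470 genes, 68.0% lay along the first principal component. Pgr, Nr3c2, Nr3c1 and Esr1 were among these genes, and how many others followed the component as closely was not counted. The sign of the component was set so that male EAE mice had a higher mean than male control mice. The r of the component over the 17 libraries was 0.97 with Pgr, 0.94 with Nr3c2 and 0.86 with Nr3c1. It was 0.26 with Esr1, -0.31 with Gper1, 0.61 with Esr2 and -0.24 with Cyp19a1. Within groups, as deviations from the group means, it was 0.93 with Pgr, 0.93 with Nr3c2 and 0.77 with Nr3c1, so libraries of the same group that lay further along the axis had more of these receptors too. The component ran from 4.64 to 39.4 in male EAE and -59.1 to -1.20 in male control mice, and from -9.16 to 37.4 in female EAE and -45.3 to -3.49 in female control mice.

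**Figure D4:**
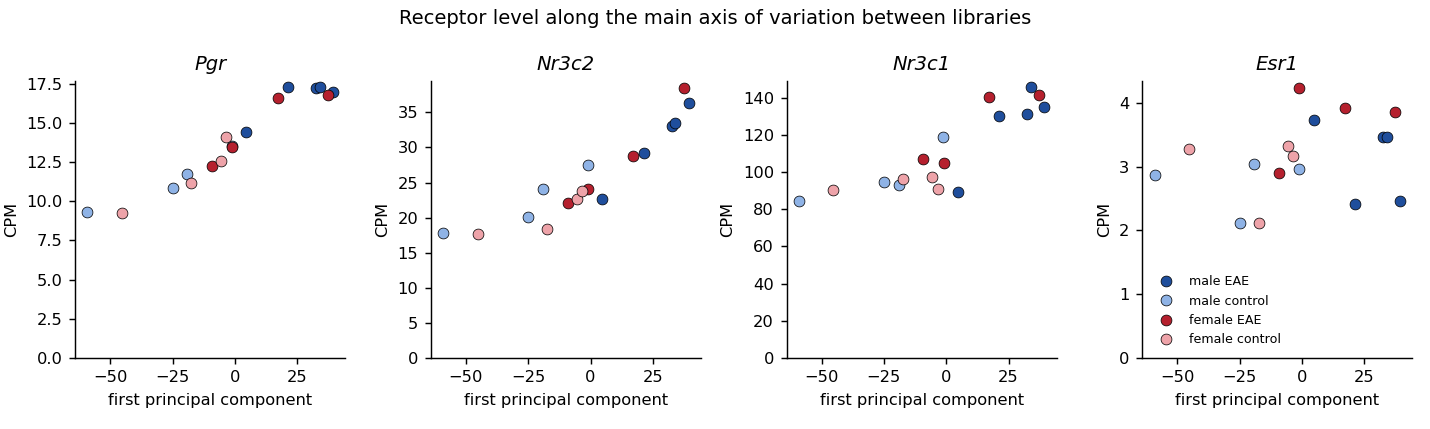
CPM of Pgr, Nr3c2, Nr3c1 and Esr1 against the first principal component of all libraries, coloured by group, on linear axes with CPM from 0. Pgr, Nr3c2 and Nr3c1 climb along the component (r = 0.97, 0.94 and 0.86, n = 17) and Esr1 is scattered (r = 0.26).

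Likeness over the 17 libraries was taken among 13287 other genes with a symbol and a mean log2 CPM above 1. Most like Pgr were Nrg3, a neuregulin, Zfp251 and B3galnt1 (Pearson r 0.99, 0.98 and 0.98). Ranks of the receptors were taken among all genes of that level, also those without a symbol. By likeness to Pgr, Nr3c2 stood at rank 1054 and Nr3c1 at rank 2301. Nearest to Nr3c1 were Fam199x, Zbtb44 and Slc35a5 (r = 0.94 each), with Nr3c2 at rank 151 and Pgr at rank 868. Nearest to Nr3c2 were Gm26794, Senp5 and Camsap1 (r = 0.98, 0.97 and 0.97), with Pgr at rank 597 and Nr3c1 at rank 1020. For Esr1 the highest values were lower, 0.71 for Rras2, 0.67 for Cep57 and 0.67 for Triqk, and for Gper1 they were 0.78 for Secisbp2 and 0.77 for Ssh3.

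Among 11 other receptors for steroids and their relatives, 2 rose and 4 fell in male EAE mice, against 19.2% and 20.4% of all genes. Esrrg, an orphan receptor related to the estrogen receptors that binds no estrogen, rose by 0.94 and Paqr9, a membrane progestin receptor, by 0.46. Nenf and Paqr6 fell by 0.91 each, Esrra, an orphan receptor that drives mitochondrial genes, fell by 0.40 and Paqr7 by 0.34. Nenf is a relative of Pgrmc1, and Paqr6 and Paqr7 are membrane progestin receptors, so the Paqr family split in direction. Pgrmc1, a progesterone-binding membrane component, averaged 245 ± 10.6 CPM in male EAE and 216 ± 18.3 CPM in male control mice (SD, n = 5 and 4) and was not called (0.18, FDR 0.107). Paqr7 was named after its values were seen, to complete the 4. In females edgeR called 0 of the 11 (5 at an unadjusted p under 0.05, as for 19.8% of all genes), DESeq2 3, and limma voom and the likelihood ratio test 0.

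Coregulators, which receptors recruit to activate or repress genes, were called higher more often than lower. In male EAE mice 11 of 24 tested rose and 2 fell, against 19.2% and 20.4% of all genes, and their median log2 fold change was 0.27, against 0.02 over all genes. Nrip1, a corepressor of nuclear receptors that estrogen induces, rose by 0.92, the p160 coactivator Ncoa2 by 0.85 and the acetyltransferase Ep300 by 0.80. Safb fell by 0.46 and the remodeler Smarca4 by 0.26, and Ncoa1 was not called (0.11, FDR 0.296). The number that rose was 4 with an offset for gene length, where 4111 of all 22242 genes were called higher. The median log2 fold change of the list was then 0.07. With 1 surrogate variable 6 rose, where 2789 of all 22242 genes were called higher, and the median was 0.14. In females edgeR called 0 of the 24 (4 at an unadjusted p under 0.05, as for 19.8% of all genes), DESeq2 1, and limma voom and the likelihood ratio test 0.

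Chaperones that hold these receptors ready for hormone were called lower or not called. Of 17 genes 11 fell and 0 rose in male EAE mice, with a median log2 fold change of -0.31, while 20.4% of all genes fell. Hspa8, which loads receptors onto Hsp90, had 161 to 291 CPM in male EAE against 275 to 569 CPM in male control mice and fell by 0.86 (SE 0.24, FDR 0.0117 by edgeR). Hsp90aa1 and Hsp90ab1, both forms of cytosolic Hsp90, fell by 0.63 and 0.61, and Fkbp4, the immunophilin that favours hormone binding and nuclear transport, by 0.62. Hsp90ab1 was abundant, with 1396 ± 189 CPM in male EAE and 2126 ± 486 CPM in male control mice (SD, n = 5 and 4). Fkbp5, the immunophilin that lowers glucocorticoid binding, averaged 49.1 ± 15.3 CPM in male EAE and 49.7 ± 12.9 CPM in male control mice and was not called (-0.02, FDR 0.967). Without male control 4, 8 of the 17 fell, and the number was also 8 with an offset for gene length and with 1 surrogate variable. Of all genes, 2916 of 22456 fell without male control 4. With the length offset 4091 of 22242 fell, and with 1 surrogate variable 2922 of 22242. In females 12 of the 17 had a log2 fold change below 0, with a median of -0.24, where 50.2% of all genes lay above 0, but edgeR called 0 (7 at an unadjusted p under 0.05, as for 19.8% of all genes), DESeq2 2, and limma voom and the likelihood ratio test 0.

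Genes known to be induced by glucocorticoids were lower more often than higher. Of 22 such genes 8 fell and 1 rose in male EAE mice, against 20.4% and 19.2% of all genes, with a median log2 fold change of -0.32. Tsc22d3 (GILZ), an anti-inflammatory protein induced by the glucocorticoid receptor, had 92.5 to 158 CPM in male EAE and 156 to 478 CPM in male control mice and fell by 1.11 (SE 0.24, FDR 0.00541 by edgeR). Nfkbia, the inhibitor of NF-kappa-B, had 14.7 to 28.0 CPM in male EAE and 30.8 to 61.9 CPM in male control mice and fell by 1.22, without overlap, as for 14.3% of all genes in that direction. Mt2, a metallothionein, fell by 1.47, but only by 0.85 without male control 4. Without that library 5 of the 22 fell, where 2916 of 22456 tested genes fell. Fkbp5 and Sgk1, a kinase induced by corticosteroids, were not called, and Sgk1 averaged 58.7 ± 10.5 CPM in male EAE and 52.8 ± 14.2 CPM in male control mice. The single gene that rose was Lcn2, at 0.0259 to 0.578 CPM in male EAE and 0 to 0.0331 CPM in male control mice. It lies under the level set for naming and was named after its values were seen. Some of these genes, Mt2 among them, are also expressed in astrocytes, whose markers were lower in the same libraries (5350 to 6479 CPM in male EAE and 7121 to 9806 CPM in male control mice), and the part of this in their values was not tested.

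In females the same list had a median log2 fold change of -0.52, against 0.00 over all genes, and 18 of its 22 genes lay below 0. Tsc22d3 had 97.8 to 134 CPM in female EAE and 169 to 278 CPM in female control mice, and Nfkbia 14.9 to 24.5 CPM in female EAE and 31.2 to 49.9 CPM in female control mice. Neither overlapped between the groups, as for 3.44% of genes in that direction. Their log2 fold changes were -1.10 (SE 0.25, FDR 0.148) and -1.07 (SE 0.23, FDR 0.131), so edgeR called neither, and 0 of the list. At an unadjusted p under 0.05 there were 15 of the 22 and 19.8% of all genes, and of the 15 genes 13 were lower. DESeq2 called 9, the likelihood ratio test 7 and limma voom 0. Of all 22242 genes DESeq2 called 800 higher and 554 lower in females. The likelihood ratio test called 425 higher and 214 lower, and limma voom 0. Sgk1 averaged 35.3 ± 6.38 CPM in female EAE and 55.0 ± 13.5 CPM in female control mice (SD, n = 4 each; log2 fold change -0.64, FDR 0.173). Over both sexes 12 of the 22 genes fell and 1 rose, where 18.3% of all genes fell.

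Genes induced by estrogen showed no common direction. Of 10, Pgr and Nrip1 rose and Rara (-0.43) and Bcl2 (-0.29) fell in male EAE mice, near the shares of all genes (19.2% higher and 20.4% lower), with a median log2 fold change of -0.14. Without male control 4, 3 of the 10 rose and 0 fell, where 2979 of 22456 tested genes rose and 2916 fell. Greb1, a sensitive target of estrogen receptor alpha, averaged 0.336 ± 0.241 CPM in male EAE and 0.548 ± 0.213 CPM in male control mice (SD, n = 5 and 4) and was not called (-0.70, FDR 0.253). In females edgeR called 0 of the 10 (2 at an unadjusted p under 0.05, as for 19.8% of all genes), as did DESeq2, limma voom and the likelihood ratio test.

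Of 28 genes of steroid synthesis and metabolism in the table, 9 were too low to test, and 7 of these, among them the adrenal enzymes Cyp21a1 and Cyp11b1, had 3 counts or fewer in all 17 libraries. Of the 19 tested, 6 fell and 1 rose in male EAE mice, against 20.4% and 19.2% of all genes. Hsd11b1, which regenerates active corticosterone inside cells, had 10.3 to 13.6 CPM in male EAE and 15.6 to 22.9 CPM in male control mice. The groups did not overlap, as for 14.3% of all genes in that direction, and Hsd11b1 fell by 0.74 (SE 0.16, FDR 0.00541 by edgeR). Fdxr, the reductase that passes electrons to mitochondrial steroid-making enzymes, fell by 1.01, the mitochondrial dehydrogenase Hsd17b10 by 0.80 and Tspo, a protein of the outer mitochondrial membrane, by 0.79. Hsd17b7 rose by 0.26, a call lost in 10 of 17 fits that left out 1 library, and Srd5a1, a steroid reductase that acts on progesterone and testosterone, was not called (-0.09, FDR 0.452). In females Hsd11b1 averaged 11.4 ± 1.46 CPM in EAE and 15.2 ± 3.96 CPM in control mice (SD, n = 4 each; log2 fold change -0.41, FDR 0.210). There edgeR called 0 of the 19 (5 at an unadjusted p under 0.05, as for 19.8% of all genes), DESeq2 1, the likelihood ratio test 1 and limma voom 0.

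**Figure D5:**
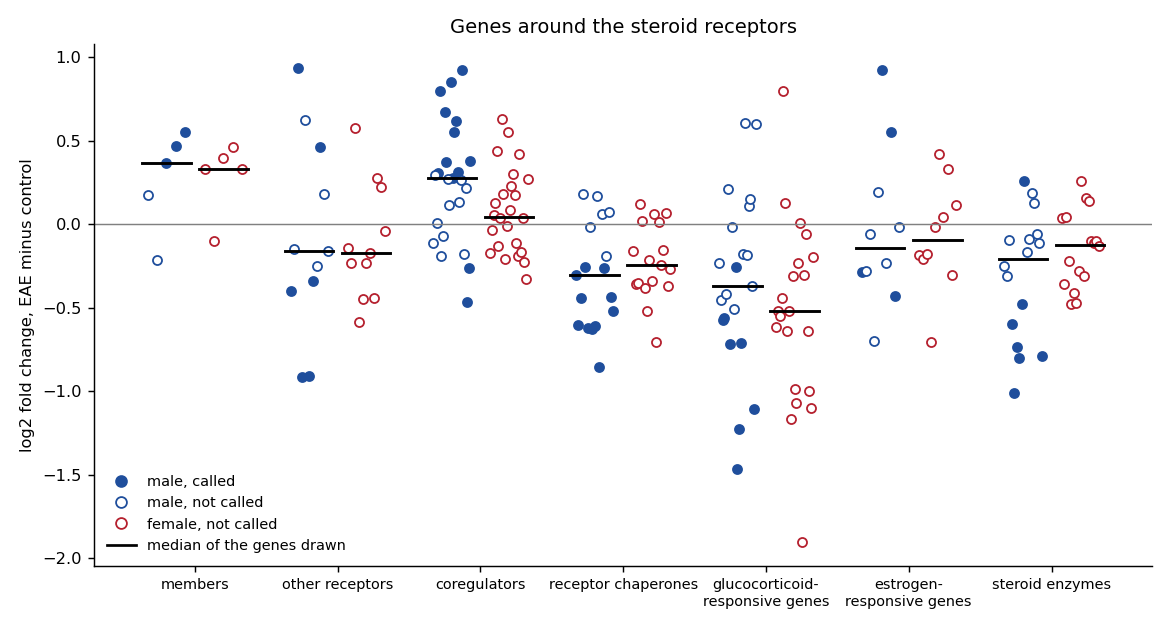
Log2 fold change of EAE minus control for each gene of 7 lists, males left and females right within each list, with filled dots for genes that passed the test and a bar at the median of the genes drawn. The 6 genes with a mean log2 CPM of -2 or less are not drawn. Coregulators lie mostly above 0 in males (11 of 24 rose), while chaperones (11 of 17 fell) and glucocorticoid-responsive genes (8 of 22 fell) lie mostly below.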

How the data were processed

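Neuronal RNA was co-immunoprecipitated from cortex, made into stranded libraries and sequenced as paired reads. The authors demultiplexed (bcl2fastq 2.17), checked (FastQC) and trimmed (Trimmomatic) the reads. QuasR served for alignment to the mouse genome mm10 and for gene-level counts. The deposited counts are whole numbers, not normalized. Reads carried no molecular identifiers, so counting errors are lower limits.

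Symbols, coordinates and exon lengths came from GENCODE M21 (GRCm38) and matched 37607 of 39017 identifiers. Promoters came from RefSeq (GRCm38.p6). Windows were found for 6 of the 7 genes, all but Nr3c1. Genes with under 1 count in most of the 17 libraries were left out. EdgeR 4.0.16 (R 4.3.3) with TMM and 1 mean per group gave F tests, adjusted over 22242 genes. A call needed FDR under 0.1 and a log2 fold change beyond 0.25. The script was tested on simulated data. The 95% intervals are normal intervals from the SE.

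The members, lists and tests were chosen with earlier results of these data known. Named were all 7 genes, up to 3 called genes per list with the largest rise and fall and a mean log2 CPM above 1, and a few genes of best known role. Genes like a member were ranked by Pearson r. Alternatives were DESeq2 1.42.0, limma 3.58.1 voom, a likelihood ratio test, RLE size factors, other filters and thresholds, each sex alone, a gene length offset, 1 surrogate variable (sva 3.50.0), a replicate block and leaving out libraries. Halved counts, and all alternatives for the lists, were added after seeing the data. Of the listed genes Sts and Prmt1 were not analysed here. A few further items are not reported here, and the counts of the lists leave out those that belonged to them.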

Additional observations from a re-analysis of the deposited data

Results flagged for a closer look

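In 4 of the 28 combinations of a gene and a group, 1 library stood apart by Dixon's criterion at the 95% level, which chance alone meets in about 1 of 20 groups. Pgr was 14.4 CPM in male EAE 3, against 16.98 to 17.3 CPM in the other 4 male EAE mice. Nr3c1 was 89.2 CPM in the same mouse, against 130 to 146 CPM in the others. This library also had the lowest first principal component among the male EAE libraries, 4.64. Esr1 was 2.12 CPM in female control 3, against 3.17 to 3.33 CPM in the other female control mice. Cyp19a1 was 0.226 CPM, from 21 counts, in female control 1, against 0.0679 to 0.0921 CPM in the other female control mice.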

How the results depend on the processing

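Pgr was called in male mice under every alternative run, with log2 fold changes of 0.35 to 0.63. With 1 surrogate variable, without male control 4, and without both male control 4 and female control 2, it was the only one called, so that the count of 3 became 1. Without both, FDR was 0.123 for Nr3c1 and 0.121 for Nr3c2. Of all genes, 2789 of 22242 were called higher in males with 1 surrogate variable. The number was 2979 of 22456 without male control 4 and 3317 of 22291 without both controls. In female mice the count of 0 became 1 with DESeq2 and 3 with 1 surrogate variable. These settings called 800 and 1804 of 22242 genes higher in females. Leaving out single libraries gave 1 to 3 called in males, 0 in females, and 3 to 4 over both sexes. Values that changed sign in males were those of Esr1 with the offset for gene length (-0.14) and of Esr2 with 1 surrogate variable (-0.29), without male control 4 (-0.15) and without both controls (-0.15), and in females that of Gper1 without female EAE 3. Leaving out single libraries gave -0.15 to 0.86 for Esr2 in males and -0.21 to 0.012 for Gper1 in females. None of these was called under any of these settings. Coregulators called higher in males numbered 4 with the length offset and 6 with 1 surrogate variable, and 9 to 12 when single libraries were left out. The length offset called 4111 and the surrogate variable 2789 of all 22242 genes higher in males. Glucocorticoid-responsive genes called lower in males numbered 5 to 10 when single libraries were left out, with 5 without male control 4. Without that library 2916 of 22456 tested genes were called lower in males. Of the other settings, 330 counts moved by 1.5 times or less. Among single log2 fold changes 613 kept their direction and side of the threshold, 10 lost the call and 10 gained it. The causes were not tested.

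The labels do not say whether mice with the same replicate number were paired. The correlation of deviations for a shared number was -0.02, 0.13, -0.28 and -0.57 in males and -0.37, 0.39 and 0.53 in females. For different numbers it ran from -0.605 to 0.615 in males and from -0.68 to 0.718 in females. Values that spread this widely cannot show or exclude a pairing. With the replicate block the male count stayed at 3, with FDR 0.0273 for Pgr, 0.0742 for Nr3c2 and 0.0885 for Nr3c1, and the block called 3654 genes higher and 4217 lower in males.

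Esr2 and Cyp19a1, at 0 to 21 counts, are limited by depth. The other 5 genes had 18 counts or more in every library.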
